A study of Mus musculus with 4 samples.

Results

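Expression of 10 late neutrophil genes was followed in LSK-SLAM cells of *BRE-GFP* transgenic mice. The genes were *S100a8*, *S100a9*, *Ngp*, *Camp*, *Ltf*, *Lcn2*, *Mmp8*, *Mmp9*, *Retnlg* and *Cxcr2*, 10 of the 23906 gene symbols measured. They were chosen on measured values, because *S100a8* had the highest level of all genes in the bone marrow (BM) GFP+ sample, and the other members were listed with it as genes of late neutrophil differentiation. Their high level in that sample is therefore a description and not a finding.

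RNA was sequenced from 4 samples. GFP+ FL and GFP- FL cells were sorted from fetal livers (FL) at embryonic day 14, GFP+ BM and GFP- BM cells from adult marrow, with 1 sample each. All 4 came from mice on a C57BL/6 background that carry the same transgene, in which a BMP responsive element drives GFP, so that GFP marks cells with active BMP signalling at the time of isolation. LSK-SLAM cells are negative for lineage markers, positive for Sca1 and cKit, positive for CD150 and negative for CD48, a surface profile that enriches for haematopoietic stem cells (HSCs). Each group held 1 sample, so no value has a replicate error, no difference has a replicate check and no p-value is given. The number of animals behind each sample is not given in the sources used here, and the level of the *GFP* transcript was not analysed here.

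Neutrophils make their granules in order. Promyelocytes fill the primary granules with myeloperoxidase and serine proteases, myelocytes and metamyelocytes fill the secondary granules with lactoferrin and cathelicidin, and band cells add the gelatinase of the tertiary granules. The calcium-binding proteins S100a8 and S100a9, which pair as calprotectin, fill the cytosol of the mature cell. These genes are known for their use in the granulocyte lineage, and HSCs are known to use them little. The lineage stain of the sort held antibodies to CD3, B220, Ter119 and Ly6c, with CD11b added for the BM, and BM cells were passed over Ficoll before staining.

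The labels were checked against genes of the tissue and of the sort. Genes listed for fetal HSCs followed the tissue labels. *Igf2bp1* had an FPKM (a fragment count scaled to transcript length and sequencing depth) of 426 and 58.8 in GFP+ and GFP- FL cells. In GFP+ and GFP- BM cells it had 0 and 0.0184. All 9 genes of this list that reached an FPKM of 1 were more than 2 times lower in GFP- BM than in GFP- FL cells. Of all 12703 genes of that comparison 2454 were. The 9 include *Hbb-bh1*, an embryonic globin gene, at 4.15 in GFP- FL and 0 in GFP- BM cells. The 8 hepatocyte markers summed to an FPKM of 359 in GFP+ FL and 28.9 in GFP- FL cells, and to 13.3 and 6.99 in GFP+ and GFP- BM cells. *Id1*, a BMP target gene, was higher in the GFP+ sample of both tissues, by 1.93 times in the FL and 4.03 times in the BM. In the BM 4 of 5 BMP target genes that reached an FPKM of 1 were more than 2 times higher and 1 was lower. After scaling to the same sum 3 were higher and 1 lower. In the FL 0 of 5 were more than 2 times higher in GFP+ cells and 1, *Bambi*, was lower, at 0.0145 against 1.20, while *Id2* and *Id3* had ratios of 1.10 and 0.995. The HSC markers set the GFP+ BM sample apart. *Procr*, which encodes the endothelial protein C receptor of HSCs, had an FPKM of 106 and 113.5 in GFP+ and GFP- FL cells and 60.8 in GFP- BM cells, but was listed at 0 in GFP+ BM cells. *Kit* had an FPKM of 102 in GFP+ FL, 150.3 in GFP- FL, 22.1 in GFP+ BM and 76.5 in GFP- BM cells. *Cd48*, whose protein the sort selects against, had its highest FPKM, 267, in GFP+ BM cells. Of the 14 HSC markers listed, 12 were more than 2 times lower in GFP+ BM than in GFP- BM cells, and 1, *Cd48*, was more than 2 times higher, or none after scaling to the same summed FPKM. *Ly6a*, which encodes the Sca1 that the sort selects for, was also higher in GFP+ BM cells, by 1.97 times. Its FPKM was 286 in GFP+ BM, 145.5 in GFP- BM, 19.7 in GFP+ FL and 46.3 in GFP- FL cells. *Procr* was the only one of the 14 at 0 in any sample. Results that compare the GFP- samples do not rest on the GFP+ BM sample and are given beside the others.

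The members lie on several chromosomes. Promoters of some of them, picked by level or by shared motif matches, are shown here with the letters of known granulocyte motifs. *S100a8* and *S100a9* are neighbours on chromosome 3, and *Camp*, *Ngp*, *Ltf* and *Mmp8* lie on chromosome 9, whereas *Lcn2* and *Mmp9* lie on chromosome 2, *Retnlg* on chromosome 16 and *Cxcr2* on chromosome 1. Windows from 250 bases before to 50 bases after the annotated start were read from RefSeq on GRCm38.p6 for 9 of the 10 genes, all but *Mmp9*. They were searched on both strands for TTNNGNAA, which the C/EBP factors of granulocyte differentiation can bind, for GAGGAAG, which PU.1 can bind, and for TATAAA, the TATA box. Capitals mark the matches, and a match on the other strand appears as its complement read backwards. No matches overlapped, and none lay beyond the first 10 bases after the start, so the sequences are shown from 250 bases before to 10 bases after it.

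The sequence of *S100a8* is chr3:90668821-90669080 on the plus strand and that of *S100a9* is chr3:90695712-90695971 on the minus strand. These are the 2 members with the highest levels.
S100a8: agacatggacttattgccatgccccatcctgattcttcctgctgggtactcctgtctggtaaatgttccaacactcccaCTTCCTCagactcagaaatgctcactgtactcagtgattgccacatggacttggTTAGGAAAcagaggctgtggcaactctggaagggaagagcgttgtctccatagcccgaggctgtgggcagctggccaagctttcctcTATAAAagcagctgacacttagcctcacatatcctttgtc
S100a9: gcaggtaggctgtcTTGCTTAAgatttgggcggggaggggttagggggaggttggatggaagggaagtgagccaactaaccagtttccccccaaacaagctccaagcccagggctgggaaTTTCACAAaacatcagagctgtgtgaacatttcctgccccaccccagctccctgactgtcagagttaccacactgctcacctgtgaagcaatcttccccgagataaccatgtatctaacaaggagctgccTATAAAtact

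*Ngp* (chr9:110419558-110419817, plus strand) and *Ltf* (chr9:111019042-111019301, plus strand) are shown because both held the same 8 letters, TTGGGCAA, on the strand of the gene.
Ngp: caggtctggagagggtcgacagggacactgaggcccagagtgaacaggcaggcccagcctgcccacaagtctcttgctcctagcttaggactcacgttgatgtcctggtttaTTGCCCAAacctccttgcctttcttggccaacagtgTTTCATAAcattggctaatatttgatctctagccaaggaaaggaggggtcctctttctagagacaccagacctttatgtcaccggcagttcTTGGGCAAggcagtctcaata
Ltf: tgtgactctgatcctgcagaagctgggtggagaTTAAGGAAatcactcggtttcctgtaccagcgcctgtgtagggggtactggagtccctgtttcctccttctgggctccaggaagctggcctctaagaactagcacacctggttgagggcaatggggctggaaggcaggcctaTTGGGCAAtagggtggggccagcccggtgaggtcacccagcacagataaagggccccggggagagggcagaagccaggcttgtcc

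*Lcn2* (chr2:32387730-32387989, minus strand) and *Mmp8* (chr9:7558179-7558438, plus strand) are shown because both held TTGCTCAA, a match on the other strand.
Lcn2: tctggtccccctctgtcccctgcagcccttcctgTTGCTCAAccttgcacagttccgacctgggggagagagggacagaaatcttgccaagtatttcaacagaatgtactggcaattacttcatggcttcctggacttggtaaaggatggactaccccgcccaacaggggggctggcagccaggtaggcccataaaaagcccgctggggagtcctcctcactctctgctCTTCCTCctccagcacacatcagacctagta
Mmp8: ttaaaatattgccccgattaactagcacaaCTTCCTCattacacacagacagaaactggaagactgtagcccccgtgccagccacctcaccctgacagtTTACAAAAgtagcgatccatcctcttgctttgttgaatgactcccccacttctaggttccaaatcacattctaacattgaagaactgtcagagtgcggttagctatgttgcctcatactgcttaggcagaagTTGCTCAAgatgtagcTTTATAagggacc

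TTNNGNAA was found in 7 of the 9 windows, all but those of *Camp* and *Cxcr2*, and in 40.7% of all 32851 windows of the table. GAGGAAG was found in the 3 windows of *S100a8*, *Lcn2* and *Mmp8*, and in 13.6% of all windows. TATAAA was found in the 3 windows of *S100a8*, *S100a9* and *Mmp8*, and also in 13.6% of all windows. In *S100a8* it ran from 30 to 25 bases before the annotated start, in *S100a9* it began at the start itself and in *Mmp8* it crossed the start. Binding was not measured in these samples, and a match of letters is no measure of it.

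**Figure D1:**
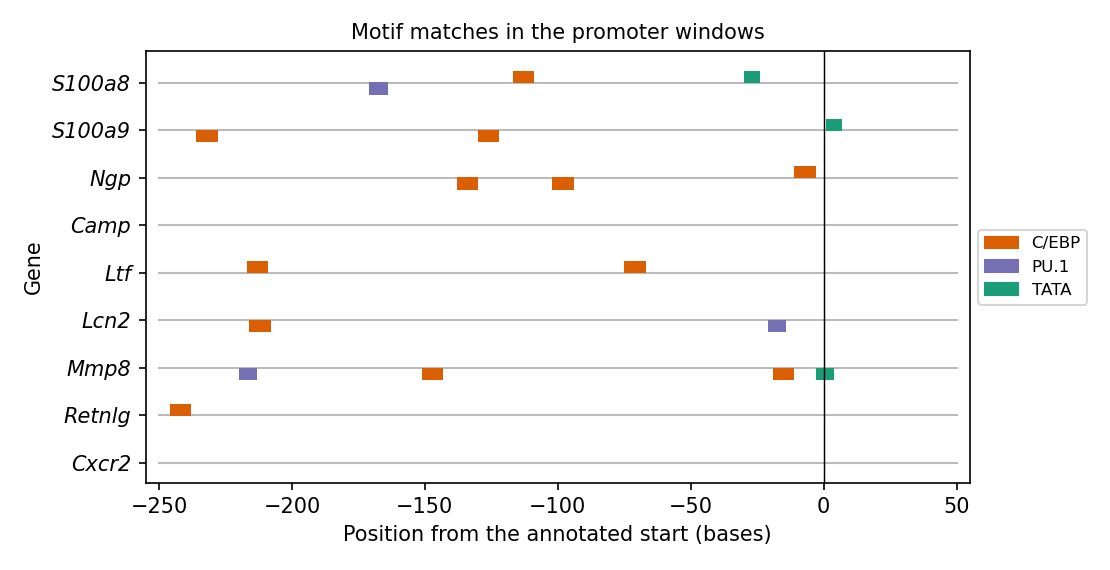
Positions of the motif matches in the promoter windows of 9 of the 10 genes, in bases from the annotated start (x axis), 1 line per gene. Orange bars are TTNNGNAA (C/EBP), violet bars GAGGAAG (PU.1) and green bars TATAAA, drawn above the line for a match on the gene's strand and below it for the other strand. *Camp* and *Cxcr2* hold no match, and *Ngp* holds the most TTNNGNAA matches, 3.

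All 10 genes had the same order of tissues, with both BM samples above both FL samples and GFP+ BM cells highest. *S100a8*, which encodes calgranulin A, had an FPKM of 25286 in GFP+ BM and 3189 in GFP- BM cells, and of 25.3 in GFP+ FL and 9.78 in GFP- FL cells. It ranked 1 among all symbols in GFP+ BM cells and 14 in GFP- BM cells, against 4166 and 6642 in GFP+ and GFP- FL cells. The other symbols among the highest 10 of GFP+ BM cells were *Hbb-bs* and *Hbb-b1* at 14659, *S100a9*, *Ddx5* and *Mir3064* at 11235, *Actb* at 9195.5, *Cd74* and *Mir5107* at 8726, and *Stub1* at 8696.5, where symbols with 1 value share the same row values. *S100a9*, which encodes its partner calgranulin B, had an FPKM of 14307 in GFP+ BM, 1871 in GFP- BM, 2.06 in GFP+ FL and 13.6 in GFP- FL cells. The ratio of *S100a8* to *S100a9* was 1.77 and 1.70 in GFP+ and GFP- BM cells, so that the pair kept nearly the same proportion at very different levels. In the FL the same ratio was 12.3 in GFP+ and 0.721 in GFP- cells.

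The secondary granule genes came next in level. *Camp*, which encodes the precursor of the antimicrobial peptide cathelicidin, had an FPKM of 4559.8 in GFP+ BM and 508 in GFP- BM cells, was listed at 0 in GFP+ FL cells and had 0.855 in GFP- FL cells. *Ngp*, which encodes neutrophilic granule protein, had 4035 in GFP+ BM, 761 in GFP- BM, 0.144 in GFP+ FL and 0.119 in GFP- FL cells. Both were thus among the most abundant transcripts of GFP+ BM cells, at ranks 24 and 30, and near or at 0 in the FL.

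*Lcn2*, which encodes the lipocalin that binds bacterial siderophores, had an FPKM of 1785 in GFP+ BM, 331 in GFP- BM, 0.104 in GFP+ FL and 0 in GFP- FL cells. *Ltf*, which encodes the iron-binding lactoferrin, had 994 in GFP+ BM, 250.9 in GFP- BM, 0 in GFP+ FL and 0.501 in GFP- FL cells. *Retnlg*, which encodes resistin-like gamma, had 1229 in GFP+ BM and 232.5 in GFP- BM cells and was listed at 0 in both FL samples. No FL value of these 3 genes reached an FPKM of 1.

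The metalloproteinase genes and the chemokine receptor were lower in level. *Mmp8*, the neutrophil collagenase of the secondary granules, had an FPKM of 102 in GFP+ BM and 39.6 in GFP- BM cells and was listed at 0 in both FL samples. *Mmp9*, the gelatinase of the tertiary granules, had 146 in GFP+ BM, 28.5 in GFP- BM, 0 in GFP+ FL and 1.03 in GFP- FL cells. *Cxcr2*, the receptor through which neutrophils leave the marrow, had 14.35 in GFP+ BM, 8.44 in GFP- BM, 1.21 in GFP+ FL and 2.66 in GFP- FL cells. *Cxcr2* had the lowest BM levels of the 10 genes and the smallest distance between the tissues.

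**Figure D2:**
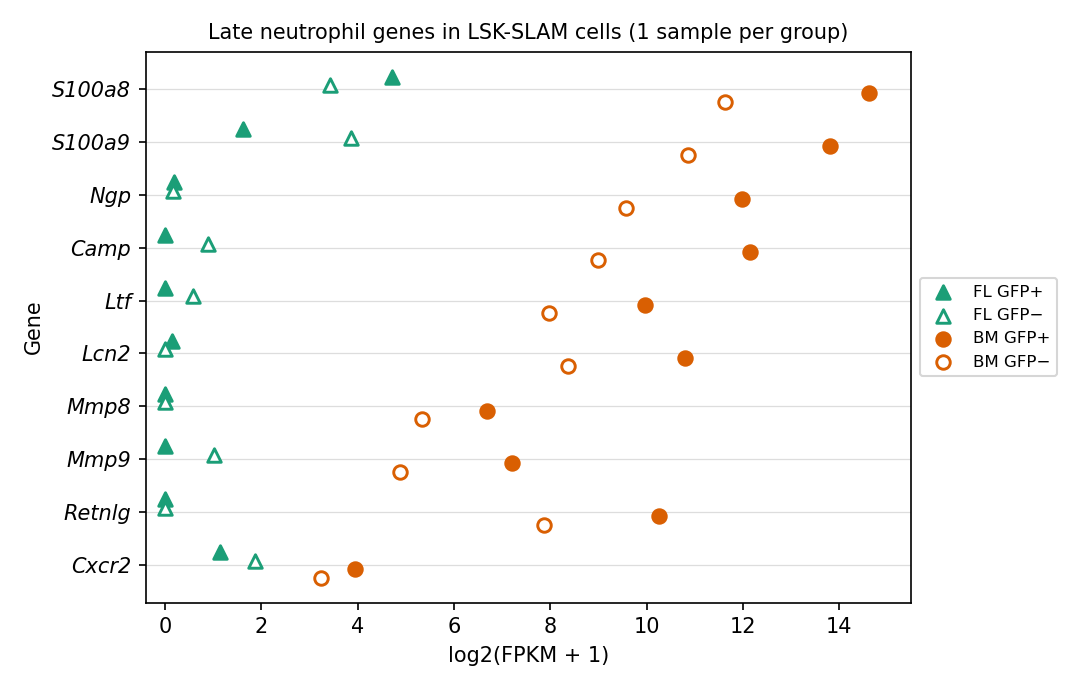
Level of each of the 10 genes as log2(FPKM + 1) (x axis) in each of the 4 samples, 1 point per sample and no error because no group was replicated. Triangles are FL and circles BM, filled for GFP+ and open for GFP-. Filled circles lie furthest right for all 10 genes, and no triangle of the 7 genes other than *S100a8*, *S100a9* and *Cxcr2* lies above 1.02.

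Together the 10 genes took 5.24% of the summed FPKM of GFP+ BM cells and 0.99% of that of GFP- BM cells, against 0.00446% and 0.00526% in GFP+ and GFP- FL cells. Without *S100a8* and *S100a9* the shares were 1.29% and 0.296% in the BM and 0.000226% and 0.000953% in the FL. The summed FPKM itself was 1000848.1 in GFP+ BM and 729311 in GFP- BM cells. The median FPKM of the 10 genes was 1507 in GFP+ BM and 291 in GFP- BM cells, whereas the median over all symbols above 0 was 10.1 and 4.15. In the FL the median of the 10 was 0.0521 in GFP+ and 0.678 in GFP- cells, with 5 and 3 of them listed at 0, and the medians over all symbols above 0 were 11.8 and 6.42. All 10 lay above the median of the detected symbols in both BM samples, *Cxcr2* by the least. In the FL only *S100a8* in GFP+ cells, and *S100a8* and *S100a9* in GFP- cells, lay above it.

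The comparison of BM with FL asks how the genes differ between the sorted LSK-SLAM samples of adult marrow and fetal liver. The Ficoll step and the CD11b stain of the BM cells also set these samples apart. All 10 were more than 2 times higher in GFP- BM than in GFP- FL cells, beside 18.6% of the 12703 genes that reached an FPKM of 1 in either sample. That comparison holds no value used in the choice of *S100a8*. The members were listed with earlier results of these data known, however, so the count is a description. The median difference in log2(FPKM + 1) was 7.63 for the 10 genes and 0.04 for all genes of that comparison. It ran from 1.37 for *Cxcr2* to 9.41 for *Ngp*. Other lists were also more than 2 times higher in GFP- BM cells. They were 10 of 10 B cell markers, 10 of 10 eosinophil and mast cell markers and 10 of 11 primary granule genes, with median differences of 5.71, 3.23 and 5.33. Of the 14 HSC markers, 2 were higher and 4 lower. Of all genes past the threshold here, 49.0% were higher in the BM, or 31.5% with both samples scaled to the same sum, and the 10 genes were past it on either scale. *S100a8* was 326 times and *S100a9* 138 times higher in GFP- BM than in GFP- FL cells, *Mmp9* was 27.7 times and *Cxcr2* 3.18 times higher, and for *Lcn2*, *Mmp8* and *Retnlg* the FL value was 0 and no fold is given. These are bulk samples, in which fewer cells of a type and less RNA per cell cannot be told apart.

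In the GFP+ samples all 10 genes were also more than 2 times higher in the BM, beside 33.6% of 12120 genes, a count that rests on the sample that chose the genes. There the median difference in log2(FPKM + 1) was 10.11 for the 10 genes and 0.15 for all genes. The share of genes past the threshold that were higher in the BM was 57.2%, or 41.0% after scaling to the same sum. The tissue comparisons use the same 4 samples as those of the GFP fractions. *S100a8* was 998 times higher and *Cxcr2* 11.8 times. The GFP+ FL value was 0 for *Camp*, *Ltf*, *Mmp8*, *Mmp9* and *Retnlg*.

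The comparison of GFP+ with GFP- cells asks what differs between BMP-activated and non-activated cells of 1 tissue. The study calls a gene high in a fraction when its level is over 2 times that of the other fraction in both tissues. Here the threshold of 2 times was also read in each tissue alone. In the BM, 9 of the 10 genes passed it in the GFP+ direction, beside 21.1% of the 12385 genes that reached an FPKM of 1 in either sample. Since the genes were chosen by a value of this contrast, nothing is read from the count, and the sizes are a description. None of the 10 was higher in GFP- BM cells, where 19.6% of the genes were. *Camp* had the largest ratio, 8.97, followed by *S100a8* with 7.93 and *S100a9* with 7.65. The ratios of *Lcn2*, *Ngp*, *Retnlg* and *Mmp9* were close to each other, at 5.39, 5.30, 5.29 and 5.12. *Ltf* had a ratio of 3.96, *Mmp8* of 2.57 and *Cxcr2*, the only member short of the threshold, of 1.70. Their median difference in log2(FPKM + 1) was 2.40, and that of all genes of the comparison was 0.12.

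The BM ratios depended on how the samples were scaled, because the FPKM of the GFP+ BM sample summed to more. With all samples brought to the same sum, *S100a8* was 5.78 times, *Camp* 6.54 times and *Ltf* 2.89 times higher in GFP+ BM cells, and *Mmp8*, at 1.87 times, no longer passed the threshold. *Cxcr2* then had a ratio of 1.24. Of all genes, 2609 were past the threshold in the GFP+ and 2428 in the GFP- direction as deposited, and 1667 and 3396 on the scale of equal sums. All 10 stayed higher in the GFP+ sample, and with the 10 genes left out of the sum *S100a8* was 6.04 times higher.

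In the FL the 10 genes did not share a direction. *S100a8* was 2.59 times higher in GFP+ cells, while *S100a9* was 6.58 times lower there. *Lcn2* also passed the threshold in the GFP+ direction, but at an FPKM of 0.104 against 0. *Cxcr2* was 2.19 times lower in GFP+ cells, and *Camp*, *Ltf* and *Mmp9* were listed at 0 in GFP+ cells with values of 0.501 to 1.03 in GFP- cells. *Ngp* differed by 1.21 times, and *Mmp8* and *Retnlg* were at 0 in both samples. In all, 2 of the 10 passed the threshold in the GFP+ direction, beside 17.9% of the 12134 genes that reached an FPKM of 1 in either sample, and 5 in the GFP- direction, beside 26.8%. Only 4 of the 10 had the FPKM of at least 1 in either sample that the background requires. Of these, *S100a8* was higher in GFP+ cells and *S100a9*, *Mmp9* and *Cxcr2* were lower. On the filter of the background the counts are thus 1 of 4 and 3 of 4. The rule of the study needs both tissues, and by it the members high in GFP+ cells were *S100a8* and *Lcn2*. Of the 13609 genes that reached an FPKM of 1 in any sample, 3.26% met it. The rule holds the BM value that chose the genes, so nothing is read from the count. *Lcn2* met its FL part only at 0.104 against 0.

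The primary granule genes, which are used earlier in the lineage, had another pattern. *Mpo*, which encodes myeloperoxidase, had an FPKM of 5777 in GFP+ BM, 4754 in GFP- BM, 247 in GFP+ FL and 117 in GFP- FL cells. *Elane*, which encodes neutrophil elastase, had 3991 in GFP+ BM, 3042 in GFP- BM, 79.9 in GFP+ FL and 11.7 in GFP- FL cells. *Ctsg*, which encodes cathepsin G, had 1762 in GFP+ BM, 1868 in GFP- BM, 11.4 in GFP+ FL and 27.1 in GFP- FL cells. All 3 were thus abundant in both BM samples, within 1.31 times of each other, and were present in the FL, where the late genes other than *S100a8* and *S100a9* stayed below an FPKM of 3.

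Of the 11 primary granule genes, 1 was more than 2 times higher in GFP+ BM than in GFP- BM cells and none was lower. It was *Fcnb*, which encodes ficolin B, with a ratio of 4.78. The median difference of the list in log2(FPKM + 1) was 0.37, which turned to -0.09 when all samples were brought to the same sum, whereas that of the 10 late genes went from 2.40 to 1.94. The ratio of *S100a8* to *Mpo* within a sample was 4.38 in GFP+ BM, 0.671 in GFP- BM, 0.103 in GFP+ FL and 0.0836 in GFP- FL cells, a value that no scaling between samples can move.

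**Figure D3:**
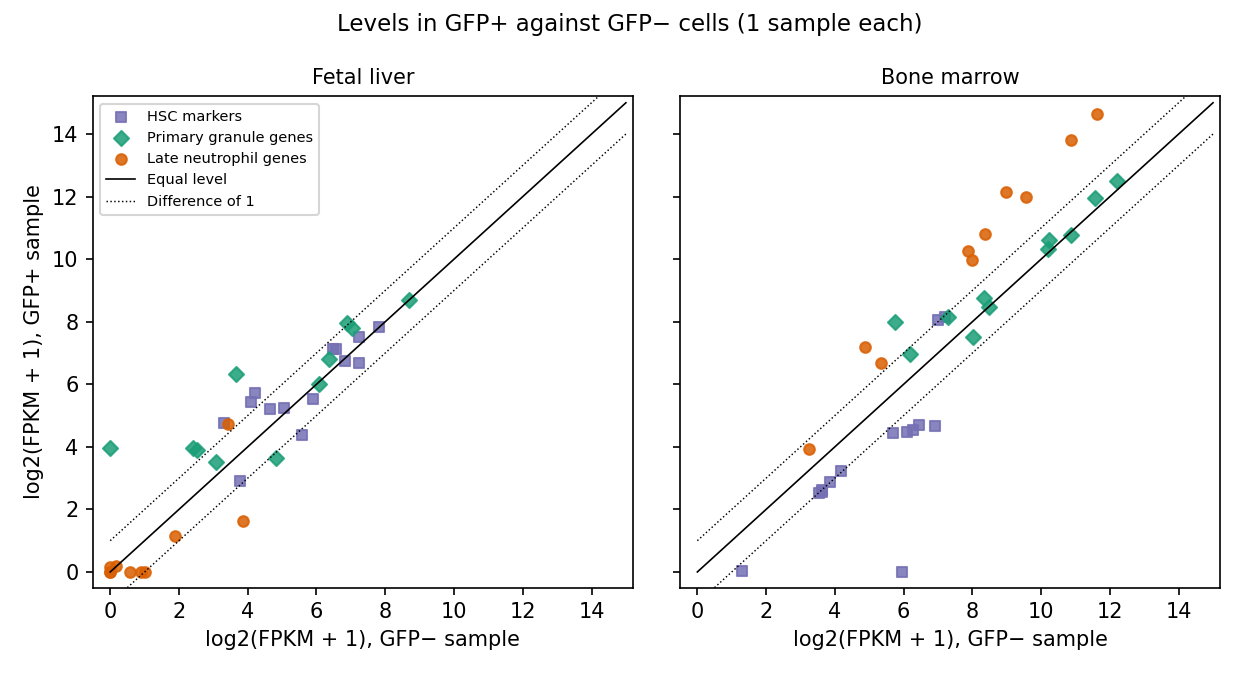
log2(FPKM + 1) in the GFP- sample (x axis) against the GFP+ sample (y axis) for the FL (left) and the BM (right), 1 point per gene and 1 sample per axis. Circles are the 10 late neutrophil genes, diamonds 11 primary granule genes and squares 14 HSC markers, the solid line marks equal levels and the dotted lines a difference of 1. In the BM 9 of the 10 circles lie above the upper dotted line, 10 of the 11 diamonds lie between the dotted lines and most squares lie below, and in the FL the circles gather at the lower left.

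Other genes of the mature neutrophil, from a list of 38 of which 37 were measured, leaned the same way in the BM. Of the 34 with an FPKM of at least 1 in either BM sample, 26 were more than 2 times higher in GFP+ cells and 1 was lower. Their median difference in log2(FPKM + 1) was 1.77. After scaling to the same sum 21 were higher and 1 lower, with a median of 1.33. *Lyz2*, which encodes lysozyme, had an FPKM of 4551 in GFP+ BM, 1042 in GFP- BM, 156 in GFP+ FL and 220.4 in GFP- FL cells. *Chil3*, a chitinase-like gene with a close paralogue that may share its reads, had 919 in GFP+ BM, 153 in GFP- BM, 0 in GFP+ FL and 0.0280 in GFP- FL cells. *Anxa1*, which encodes annexin A1, had 543 in GFP+ BM, 244 in GFP- BM, 24.7 in GFP+ FL and 37.0 in GFP- FL cells.

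Not every gene of the list took part. *Slpi*, which encodes a secreted inhibitor of elastase, had nearly the same FPKM in both BM samples, 524 in GFP+ and 482.5 in GFP- cells, and was listed at 0 in the FL. *Fpr2*, a formyl peptide receptor, was the gene that was lower in GFP+ BM cells, at 0 against 2.04. In the FL 15 genes of this list had an FPKM of at least 1 in either sample, of which 1 was more than 2 times higher in GFP+ cells and 7 were lower.

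Of the 10 regulators of the granulocyte programme listed, 6 were more than 2 times higher in GFP- BM than in GFP- FL cells and 1 was lower. In GFP+ cells 8 were more than 2 times higher in the BM and 0 lower. Of all genes, 18.6% were higher in the GFP- and 33.6% in the GFP+ comparison. After scaling to the same sum 6 were higher and 3 lower in GFP- cells, and 8 and 0 in GFP+ cells. Counted as deposited and by any amount, 7 were higher and 3 lower in GFP- BM cells, and all 10 were higher in GFP+ BM cells. The 3 lower by any amount were *Gfi1*, *Cebpb* and *Runx1*. *Gfi1* had 5.28 in GFP- BM, 7.66 in GFP+ BM, 20.9 in GFP- FL and 0.147 in GFP+ FL cells. *Runx1* had 12.4 in GFP- BM and 18.96 in GFP- FL cells. *Cebpe*, the C/EBP factor needed for secondary granule genes, had an FPKM of 35.1 in GFP+ BM and 11.2 in GFP- BM cells and was listed at 0 in both FL samples. *Spi1*, which encodes PU.1, had 314.5 in GFP+ BM, 173 in GFP- BM, 196 in GFP+ FL and 155 in GFP- FL cells. *Irf8*, a factor of the monocyte branch, had 320.0 in GFP+ BM, 132 in GFP- BM, 15.1 in GFP+ FL and 4.79 in GFP- FL cells. Of these regulators, 6 were more than 2 times higher in GFP+ BM than in GFP- BM cells and none was lower, with a median difference in log2(FPKM + 1) of 1.25, and 3 were higher after scaling to the same sum. *Cebpb*, *Cebpd* and *Lef1* passed the threshold in opposite directions in the tissues, with ratios in the BM of 7.91, 2.47 and 2.56. Their FPKM in GFP+ and GFP- FL cells was 0 and 1.27 for *Cebpb*, 0.918 and 3.77 for *Cebpd*, and 0 and 0.308 for *Lef1*.

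The genes of the NADPH oxidase and the phagocyte integrins had a median contrast between those of the primary granule genes and of the 10 late genes. Of the 10 listed, 8 were more than 2 times higher in GFP+ BM than in GFP- BM cells and none was lower. Their median difference in log2(FPKM + 1) was 1.497. After scaling to the same sum 6 were higher, with a median of 1.04. *Cyba*, a membrane subunit of the oxidase, had an FPKM of 824 in GFP+ BM, 325 in GFP- BM, 166 in GFP+ FL and 125 in GFP- FL cells. *Itgam*, which encodes the CD11b of the BM lineage stain, had 39.0 in GFP+ BM, 9.11 in GFP- BM, 12.98 in GFP+ FL and 5.197 in GFP- FL cells. *Ly6c2*, which encodes Ly6C, had 1102 in GFP+ BM, 605 in GFP- BM, 16.2 in GFP+ FL and 0.635 in GFP- FL cells. Transcripts of antigens that the sort selects against were therefore present in both BM samples. Of the 8 genes of the lineage stain listed, 6 were more than 2 times higher in GFP+ BM than in GFP- BM cells and none was lower. After scaling to the same sum 5 were higher.

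Partners of the members were also read. *Cxcl2*, which encodes a ligand of Cxcr2, had an FPKM of 9.75 in GFP+ BM, 2.17 in GFP- BM, 0 in GFP+ FL and 0.2601 in GFP- FL cells, and *Cxcl1*, another ligand, was listed at 0 in all 4 samples. *Cxcl12*, which encodes the chemokine that holds neutrophils in the marrow, had 67.7 in GFP+ BM, 7.66 in GFP- BM, 0 in GFP+ FL and 1.82 in GFP- FL cells. Of the 7 genes of this chemokine list with an FPKM of at least 1 in either BM sample, 3 were more than 2 times higher in GFP+ cells and none was lower.

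Of the 9 genes on the list for calprotectin receptors and signalling, 4 were more than 2 times higher in GFP+ BM than in GFP- BM cells, or 3 after scaling to the same sum. *Emr1*, 1 of the 4, is a macrophage marker that is also on the monocyte and macrophage list, with a ratio of 2.89. *Tlr4*, a receptor described for calprotectin, stayed between 4.67 in GFP- BM and 8.33 in GFP+ BM cells, with 7.17 and 7.53 in GFP+ and GFP- FL cells. *Timp1*, the inhibitor of Mmp9, was listed at 0 in all 4 samples, and *Timp2* had an FPKM of 8.29 in GFP+ BM, 2.35 in GFP- BM, 0 in GFP+ FL and 3.90 in GFP- FL cells. Of the 3 inhibitor genes that reached an FPKM of 1 in either BM sample, 1 was more than 2 times higher in GFP+ cells and 1 was lower.

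Relatives of the members differed among themselves in the BM. Of 9 other S100 genes that reached an FPKM of 1 in either BM sample, 3 were more than 2 times higher in GFP+ cells, namely *S100a4*, *S100a6* and *S100a11*, and 3 were lower, namely *S100a3*, *S100a5* and *S100a16*, none of which reached an FPKM of 2 in the BM. The median difference of the 9 in log2(FPKM + 1) was 0.45, or 0.0035 after scaling to the same sum, where 2 were higher. *S100a11* had an FPKM of 1177 in GFP+ BM, 434 in GFP- BM, 196 in GFP+ FL and 164 in GFP- FL cells. *S100a4* had 313 in GFP+ BM, 66.0 in GFP- BM, 17.4 in GFP+ FL and 12.2 in GFP- FL cells, and *S100a10* differed by 1.76 times in the BM. The ratio of *S100a8* to *S100a11* was 21.5 in GFP+ BM and 7.36 in GFP- BM cells but 0.129 and 0.0597 in GFP+ and GFP- FL cells, which reverses the order of these family members between the tissues.

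Of the other metalloproteinase genes, 5 of 18 had an FPKM of at least 1 in either BM sample, 1 was more than 2 times higher in GFP+ cells and 3 were lower. The higher one was *Mmp25*, which is also on the list of late neutrophil genes, with 13.4 in GFP+ BM, 2.76 in GFP- BM, 0 in GFP+ FL and 1.78 in GFP- FL cells. *Mmp2*, the other gelatinase gene, had an FPKM of 12.4 in GFP+ FL, 9.92 in GFP- FL, 0.0427 in GFP+ BM and 4.998 in GFP- BM cells, the opposite order of tissues to *Mmp9*. *Retn*, the resistin gene, had 2.35 in GFP+ BM and 0.224 in GFP- BM cells, against 1229 and 232.5 for its paralogue *Retnlg*. Of 8 relatives listed for *Lcn2* and *Ltf*, *Orm1* was more than 2 times higher in GFP+ BM cells, at 10.2 against 1.61. *Trf*, which encodes transferrin, the relative of lactoferrin, ranged from 40.9 in GFP- FL to 91.7 in GFP+ FL cells.

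Many markers of other mature cells were, like the late neutrophil genes, higher in GFP+ BM than in GFP- BM cells. *Prg2*, an eosinophil granule gene, had an FPKM of 6588 in GFP+ BM, 767 in GFP- BM, 0 in GFP+ FL and 54.5 in GFP- FL cells. *Hbb-b1*, an adult globin gene whose values were identical to those of *Hbb-bs*, had 14659 in GFP+ BM, 2042 in GFP- BM, 629.8 in GFP+ FL and 623 in GFP- FL cells. *Cd79b*, a B cell receptor subunit gene, had 1431 in GFP+ BM, 423 in GFP- BM, 87.6 in GFP+ FL and 41.1 in GFP- FL cells. Their BM ratios were 8.59 for *Prg2*, 7.18 for *Hbb-b1* and 3.38 for *Cd79b*. Those of the members ran from 1.70 to 8.97, a range too wide for any likeness to be read from it.

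Over the whole lists, markers with an FPKM of at least 1 were counted that were more than 2 times higher in GFP+ BM than in GFP- BM cells. They were 8 of 10 eosinophil and mast cell, 6 of 10 erythroid and 8 of 10 B cell markers. To these came 7 of 10 T and NK cell and 10 of 15 monocyte and macrophage markers. After scaling to the same sum the T and NK cell count was 6 and the monocyte and macrophage count 9, and the other 3 counts stayed. No marker of these lists was more than 2 times lower. Of the 8 megakaryocyte and platelet markers 2 were higher and 2 lower, or 1 and 3 after scaling to the same sum. *Hbb-bs* and *Hba-a2*, with values identical to those of *Hbb-b1* and *Hba-a1*, were left out of the erythroid counts and sums. Summed FPKM in GFP+ and GFP- BM cells was 8946 and 1157 for the eosinophil and mast cell list, 25423 and 3897 for the erythroid list, 3994 and 1114 for the B cell list, 300 and 101 for the T and NK cell list and 1599 and 806 for the monocyte and macrophage list. In GFP+ and GFP- FL cells the B cell list summed to 96.3 and 44.4 and the eosinophil and mast cell list to 38.5 and 84.9, with 8 and 2 of its 10 markers listed at 0. The erythroid list summed to 1995 and 1929 in these samples, the T and NK cell list to 17.8 and 19.2, with 5 of its 10 markers at 0 in each, and the monocyte and macrophage list to 108 and 43.9. In GFP+ BM cells no marker of these lists was at 0. The part of such cells in the levels of the 10 genes was not tested.

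**Figure D4:**
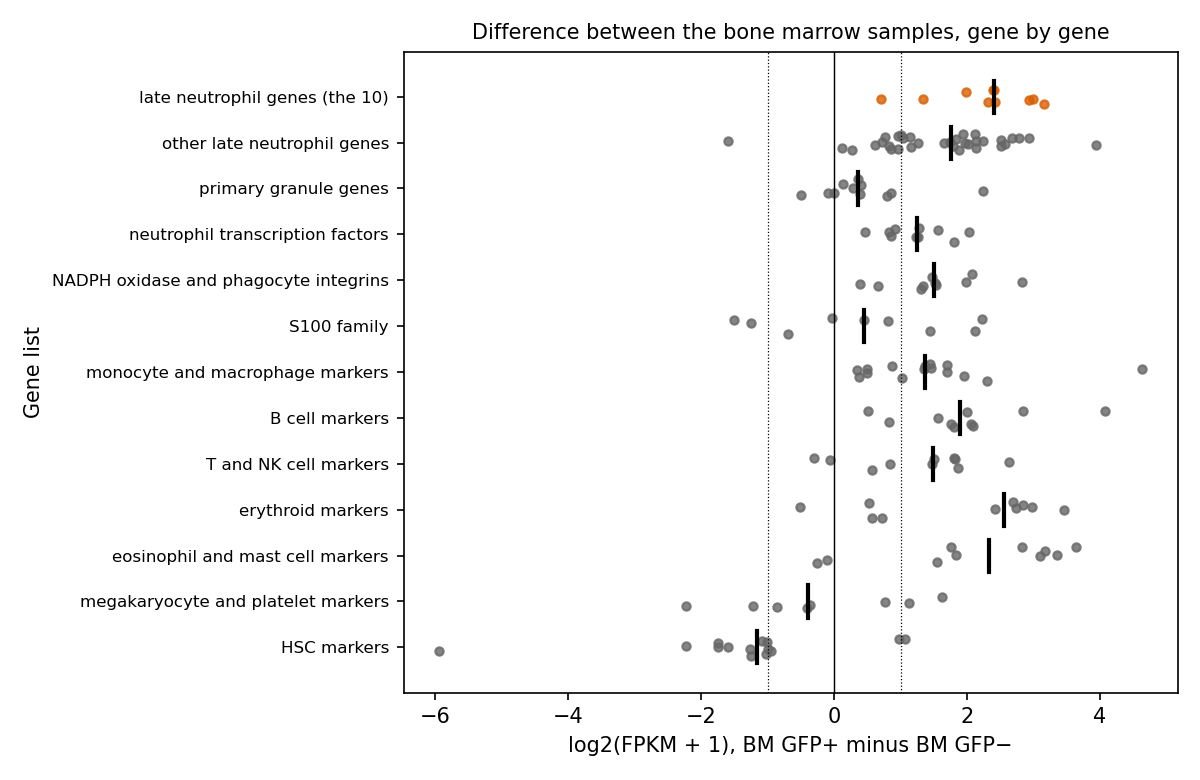
Difference in log2(FPKM + 1) between GFP+ BM and GFP- BM cells (x axis) for each gene with an FPKM of at least 1 in either sample, by gene list (y axis), with black bars at the medians, a solid line at 0 and dotted lines at a difference of 1 in each direction. The 10 late neutrophil genes (orange) have a median of 2.40, the erythroid list of 2.56, the eosinophil and mast cell list of 2.33, the primary granule genes of 0.37, which turns to -0.09 after scaling to the same sum, and the HSC markers of -1.16.

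The genes whose profile over the 4 samples was closest to that of *S100a8* were sought by the distance between log2(FPKM + 1) profiles centred on their means, among genes outside the 10 with an FPKM of at least 10 in any sample. The closest was *Ly6d*, a surface antigen gene of early B cells, at a distance of 1.06, with an FPKM of 1016 in GFP+ BM and 210.1 in GFP- BM cells and 0 in the FL. It was followed by *Chil3* at 1.11 and *Igj*, the joining chain gene of plasma cells, at 1.13. The others of the closest 10 were *Faim3*, *H2-Eb1*, *Cd74*, *Mir5107*, whose values were identical to those of *Cd74*, *H2-Ab1*, *Prss34* and *H2-Aa*, at distances of up to 1.75. *H2-Eb1*, *H2-Ab1* and *H2-Aa* encode MHC class II chains and *Cd74* the invariant chain.

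The members themselves lay at distances from 1.002 for *Retnlg* and 1.012 for *Lcn2* to 7.30 for *Cxcr2*, and *S100a9* at 2.56. With a pseudocount of 0.1 in place of 1 the closest 10 were all other genes, 0 of them shared, led by *Mcemp1*, *Myl4* and *Ltb4r1*. The likeness is over 4 samples of which the FL values lie near 0, so that the choice of pseudocount decided which genes were named.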

How the data were processed

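RNA of 4 LSK-SLAM samples was sequenced by the authors from SMARTer libraries. Reads had been aligned by the authors with Bowtie and TopHat, and the submitters' processing notes name Cufflinks 2.2.1. The values were deposited as FPKM, after Cuffquant's corrections for bias and multi-mapped reads and Cuffnorm's geometric scaling between samples. The study's methods name mm9 as the build, whereas the processing notes name mm10. The files hold symbols without coordinates, counts or errors, and no depth was computed from them.

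From these files levels, ratios and differences in log2(FPKM + 1) were computed, a scale that understates changes of low genes. The study calls a gene high in a fraction when its FPKM is over 2 times the other's in the BM and the FL alike. That rule was used as stated, and its fold was also read in each pair of samples alone, without rescaling. Background shares are over genes that reached an FPKM of 1 in either sample compared. No test was run, since each group held 1 sample. A fit over both tissues was left out because it would contain the value that chose the genes. The members and the 22 other lists of genes were chosen with earlier results of these data known. Named are all 10 members, of the other lists genes among the 4 highest in FPKM or past the threshold in opposite directions in the tissues, the 10 genes closest to *S100a8* and the 10 highest in GFP+ BM cells. *Procr*, *Kit*, *Itgam*, *Gfi1*, *Runx1*, *Mmp25*, *S100a3*, *S100a5*, *S100a16*, *Hba-a2*, *Fpr2*, *Fcnb*, *Tlr4*, *Emr1*, *Cxcl1* and *Timp1* were named after their values were seen. Older symbols were matched through RefSeq synonyms, and 2 list symbols were not matched. After the values were seen, rows identical in all 4 samples were counted once in a list, *S100pbp*, no S100 gene, was left out of that family and *Mmp25* was added to the metalloproteinases. Alternatives were pseudocounts of 0.1 and 10, thresholds of 1.5 and 4 times, low-value filters and 4 rescalings. The code for calls, scaling and distances was run on simulated data with planted changes, which checks the code and not the error of the calls given here. Python 3.11.15, numpy 2.4.6, pandas 2.3.3 and matplotlib 3.10.9 were used.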

Additional observations from a re-analysis of the deposited data

Results flagged for a closer look

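For 5 of the 10 genes the GFP contrast pointed one way in the FL and the other way in the BM. The difference between the tissues was not tested, since each group held 1 sample. The difference in log2(FPKM + 1), GFP+ minus GFP-, came to -2.25 for FL and 2.93 for BM cells for *S100a9*, -0.89 and 3.16 for *Camp*, -0.59 and 1.98 for *Ltf*, -1.02 and 2.32 for *Mmp9*, and -0.72 and 0.70 for *Cxcr2*. Of these, *S100a9* had an FPKM above 3 in an FL sample, and the FL differences of the other 4 rest on values of at most 2.66. *S100a8*, the partner of *S100a9*, was higher in GFP+ cells of both tissues, by 1.29 in the FL and 2.99 in the BM.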

How the results depend on the processing

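All 4 rescalings and all pseudocounts kept the sign of every median and of every called difference of the 10 genes. The number past the threshold in the GFP+ FL direction, 2 as reported, was 1 at a threshold of 4 times and 1 with a minimum FPKM of 1. Pseudocounts of 0.1 and 10 gave median differences between BM and FL of 12.89 and 7.21 in GFP+ cells and of 8.67 and 4.86 in GFP- cells, against 10.11 and 7.63. Leaving out *S100a8* and *S100a9* lowered the share of summed FPKM to 0.000226% in GFP+ FL, 0.000953% in GFP- FL, 1.29% in GFP+ BM and 0.296% in GFP- BM cells. Scaling to the same sum moved the median of all genes by -0.41 between the BM samples, by -0.24 between the FL samples, by -0.57 between the GFP+ and by -0.40 between the GFP- samples of the tissues. The share of genes past the threshold that were higher in GFP+ BM than in GFP- BM cells then went from 51.8% to 32.9%, while 8 of the 10 late genes stayed past it. Without a minimum FPKM the background share for BM over FL in GFP- cells was 29.2% in place of 18.6%. Of 240 differences of single genes, 43 moved by over 1.5 times and none of those past the threshold changed sign. No paired analysis was possible because of the replicate numbers, of which the groups share fewer than 2, and a fit with the tissue as the block was left out by choice. Counting error was not computed, since the files hold no read counts, and no order is read from values near 0 in the FL. With the lists as first written, 8 erythroid rows were more than 2 times higher in GFP+ BM than in GFP- BM cells in place of 6, 4 S100 rows were lower in place of 3 and no other metalloproteinase was higher in place of 1.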
